A study of Mus musculus with 2 samples.

Results

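Potassium channel genes were examined in DNase-seq data from mouse frontal cortex. They were taken as all protein-coding GENCODE M21 genes whose symbol starts with Kcn, which gave 94 of 21938 protein-coding genes on the autosomes, X and Y. The 94 genes fall into 21 subfamilies by the letters after Kcn, grouped here into 8 classes. The data held 2 libraries, biological replicates 1 and 2 of 1 group: frontal cortex of 14-day-old female B6CASTF1/J mice, the F1 hybrid of a C57BL/6 and a CAST/Ei parent. Both carry the same donor label, and the labels leave unsaid if each library holds 1 animal or a pool. No treatment, mutation or second tissue is labelled. Replicate was therefore set beside replicate, and the channel genes beside all protein-coding genes, with no test between groups.

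Potassium channels let potassium ions leave the cell, which sets the resting potential of neurons and ends each action potential. Voltage-gated channels are tetramers of pore subunits, opened by depolarization and tuned by auxiliary subunits. Inward rectifiers and K2P channels, whose subunits each hold a pair of pore domains, carry current near rest, and a further group opens with intracellular calcium or sodium. DNase I cuts DNA that is free of nucleosomes, so a dense cluster of cuts, called a peak, marks an accessible promoter or distal element. A short stretch within a peak that is protected from cutting is a footprint, which a bound protein can leave.

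For each gene a promoter peak was a peak that came within 500 bp, in either direction, of any start of transcription (TSS) in the annotation. A gene with such a peak is called open here. A linked peak touched no such window of any gene and had its midpoint in the gene record or within 10 kb of it. Peaks came from the longer of the authors' lists, with 93641 peaks in replicate 1 and 66196 in replicate 2. Promoter strength is the value of the strongest promoter peak in the authors' depth-normalized signal, whose scale is not stated. All strengths were whole multiples of a step, within 0.05 steps, of 0.00670 in replicate 1 and 0.00858 in replicate 2. If 1 step is 1 cut, replicate 1 was 1.28 times as deep. The weakest promoter peak of a channel gene then held 33 cuts, with a counting error of 17.4%, and the strongest 1377, with 2.70%. These cover counting error only. In tissue of mixed cell types, fewer cells with an open site and less cutting per cell cannot be told apart.

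The tissue label was set beside marker promoters. All 10 cortical and neuronal markers had a promoter peak in replicate 1, 7 in replicate 2 and 7 in both. Gad1 and Slc17a7 were among those without one in replicate 2. Of 6 oligodendrocyte markers 3 had a promoter peak in replicate 1, 1 in replicate 2 and 1 in both. Of 10 markers of other tissues these counts were 2, 1 and 1, and of 4 endothelial markers 0, 1 and 0. Of 6 astrocyte markers 4 had a promoter peak in both libraries, and of 5 microglial markers 1. Any protein-coding gene had such a peak in 63.8% of cases in replicate 1, 59.2% in replicate 2 and 58.8% in both. The 7 of 10 neuronal markers with a peak in both lie near the last share, and no difference was tested. The part of other cell types in the channel results was not tested.

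Most potassium channel promoters were accessible, but weakly. A promoter peak was present in both libraries at 59 of the 94 genes, or 62.8%, where 58.8% of all protein-coding genes had one. In replicate 1 the count was 69 genes, or 73.4% against 63.8% of all genes, and in replicate 2 it was 59, or 62.8% against 59.2%. Of the channel genes, 10 (10.6%) had a promoter peak in 1 library only, always replicate 1, and the background was 5.3%. A further 25 (26.6%) had none in either library, where the background was 35.9%. At least 1 footprint lay in a promoter peak in both libraries at 51 genes (54.3%), against 56.1% of all genes.

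The median channel promoter with a peak in both libraries stood at 1.39 (replicate 1) and 0.883 (replicate 2), a mean of 1.14 ± 0.360 (SD, n = 2). For all protein-coding genes the medians were 2.94 and 1.88, a mean of 2.41 ± 0.751. Channel medians were thus below those of all genes in each library, and the higher channel median lay below the lower of the others. Only 7 of the 59 channel promoters stood above the median of all peaked promoters in replicate 1. Voltage-gated sodium and calcium channel genes, 40 with Scn or Cacn symbols, had medians of 1.33 and 1.08, and the difference from the channel genes was not tested. A promoter peak in both libraries with a strength above 2 in replicate 1, a level chosen after the values were seen, was found at 16 channel genes (17.0%) against 39.5% of all genes.

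**Figure D1:**
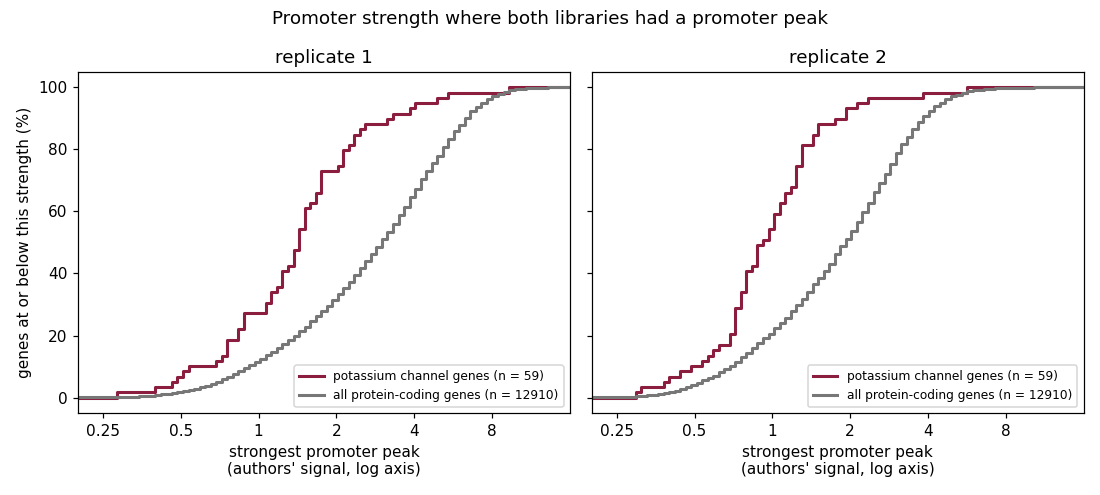
Cumulative share of genes (y axis, %) at or below each promoter strength (x axis, authors' signal on a log axis) in replicate 1, left, and replicate 2, right, for the 59 potassium channel genes and the 12910 protein-coding genes with a promoter peak in both libraries. The channel curve lies left of the other over most of its length, with medians of 1.39 against 2.94 in replicate 1 and 0.883 against 1.88 in replicate 2.

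Channel promoters were close to other promoters in GC content and had fewer CpG dinucleotides. RefSeq promoters (GRCm38, 250 bases before to 50 after a start) were at hand for 69 of the 94 genes, 94 promoters in all. Their median GC content was 58.0% against 57% over 20150 promoters of protein-coding genes, and they held a median of 9 CpG against 14. Among genes with a promoter peak in both libraries, GC was 60.3% against 60.7% and CpG 11 against 20. Among genes with none, channel promoters had 54.3% GC and 5.5 CpG, against 47.3% and 3 for all such promoters. The part of CpG content in promoter strength was not tested.

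Letters of common promoter motifs were counted in channel promoters and set beside their share over all promoters. Both strands were searched in these 300-base windows. The ETS letters CCGGAAGT were in 0 of 94 channel promoters and in 5.35% of all, the NRF1 letters GCGCATGCG in 0 against 2.45%, the CRE letters TGACGTCA in 0 against 2.31% and the YY1 letters AAGATGGCG in 0 against 1.93%. The 94 windows come from 69 genes, with or without a promoter peak, and some overlap. In so few windows, 0 lies close to shares of 1.93% to 2.45%. The missing NRF1, CRE and YY1 letters are thus not read as a trait of channel genes. The core letters of CTCF, given below, were also in 0 channel promoters, against 3.08% of all. Several motifs were searched and none was tested, so the missing ETS and CTCF letters are not read as a trait either. TATAAA was in 5.32% against 12.1%. The SP/KLF letters GGGCGG were as common as elsewhere, in 47.9% against 47.8%, and the E-box CAGATG was in 20.2% against 14.3%. The REST letters TTCAGCACC were in 1 channel promoter, that of Kcnh6, and in 0.407% of all. Within promoter peaks, 66 footprints of channel genes were seen in both libraries with at least 50% overlap, and 22.7% of them held GGGCGG within 5 bp, against 23.7% of 24703 footprints at any TSS. A match is a description of letters and not a shown binding site.

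Auxiliary subunits held the strongest promoter of all. Kcnab2, which encodes a cytoplasmic beta subunit of Kv1 channels, had a promoter strength of 9.22 in replicate 1 and 5.58 in replicate 2. These values stand at percentiles 99.1 and 98.5 of all genes with a promoter peak. The replicate 1 peak lies on chromosome 4 at 152477461 to 152477760, 111 bp inside the 5' end of the Kcnab2 record, and also within 500 bp of a TSS of Nphp4, a ciliary gene on the opposite strand. Its cutting can therefore not be assigned to Kcnab2 alone. One footprint seen in both libraries lies in the first exon and holds GGGCGG within 5 bp of its ends. It is shown in capitals on the strand of Kcnab2 (mm10).
Kcnab2 promoter footprint, chr4:152477484-152477505, minus strand: GGAACCTGCCGGAGCGAGCGGG

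The other beta subunit genes were also open, Kcnab3 at 2.26 and 1.44 and Kcnab1 at 1.04 and 0.823. All 3 Kcnab genes were thus open in both. Of the 4 Kcnip genes, whose calcium-binding products join Kv4 channels, 3 had one. Kcnip4 stood at 2.03 and 1.11, Kcnip3 at 1.53 and 1.26 and Kcnip2 at 0.844 and 0.669. Kcnip1 had a weak peak of 0.549 in replicate 1 only. The Kcne genes, whose single-span subunits modify channels of heart, ear and epithelia, mostly lacked a promoter peak. Of these 5 genes only Kcne3 had a promoter peak in both libraries, at 0.737 and 0.523. Kcne1, Kcne1l, Kcne2 and Kcne4 had none, nor did Kcnrg, a channel regulator.

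**Figure D2:**
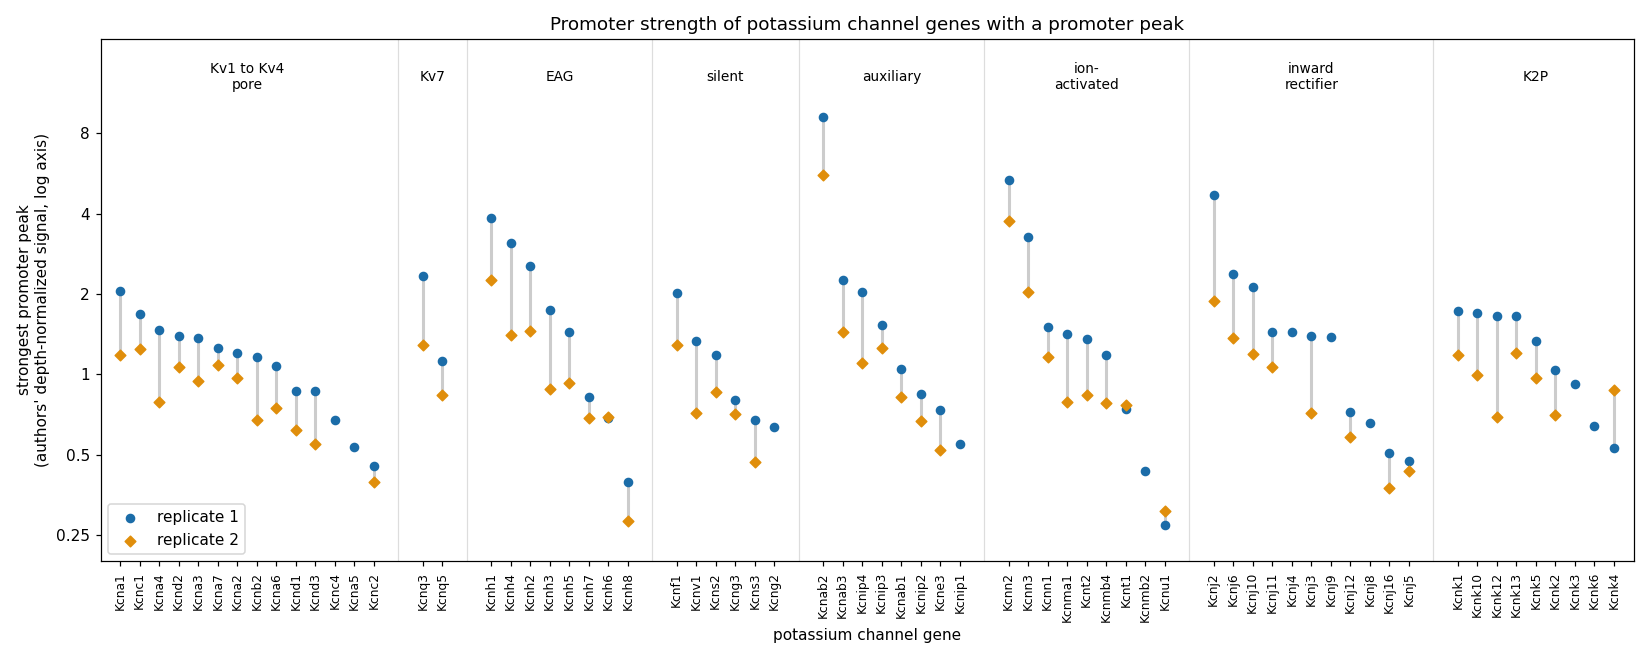
Promoter strength (y axis, authors' depth-normalized signal on a log axis) of 67 of the 69 potassium channel genes with a promoter peak (x axis; 2 are left out), by class, in replicate 1 (circles) and replicate 2 (diamonds), with a line joining both values of a gene. Kcnab2 is highest at 9.22 and 5.58, and 10 genes have a circle only.

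Pore subunits of the Kv1 to Kv4 families, which carry the delayed rectifier and A-type currents of neurons, were open at 14 of 17 genes in both libraries. Class counts here and below stand beside 58.8% of all protein-coding genes, and differences between classes were not tested. The Kv1 to Kv4 medians were 1.31 in replicate 1 and 0.956 in replicate 2. Kcna1 (Kv1.1), a subunit of axonal channels, had 2.05 and 1.18 and its relative Kcna2 (Kv1.2) 1.20 and 0.969. Of the Kv4 genes of the A-type current, Kcnd2 stood at 1.39 and 1.06 and Kcnd3 at 0.864 and 0.549. Kcnc2, the Kv3.2 gene, was among the weakest at 0.455 and 0.395. Kcna3, Kcna4, Kcna6, Kcna7, Kcnb2, Kcnc1 and Kcnd1 lay between 0.864 and 1.69 in replicate 1 and between 0.618 and 1.24 in replicate 2. Kcna10 had no promoter peak, and Kcna5 and Kcnc4 had weak ones of 0.536 and 0.676 in replicate 1 only. In replicate 1 promoter footprints were most numerous at Kcna2, with 29 over its 6 promoter peaks. In replicate 2 Kcna2 had 6, fewer than the 10 at Kcnip4.

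Among the Kv7 genes, Kcnq3, which encodes a subunit of the neuronal M current, had a promoter strength of 2.34 in replicate 1 and 1.29 in replicate 2. Kcnq5, another neuronal member, had 1.12 and 0.841. Kcnq1, known from heart and epithelia, had no promoter peak in either library, and the nearest peak lay 11362 bp from a TSS in both. Linked peaks were present at Kcnq1 all the same, with 12 in replicate 1 and 7 in replicate 2. Kcnq3 had 12 and 9 and Kcnq5 11 and 6.

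The EAG class was the only one of the 8 in which every gene, 8 of 8, had a promoter peak in both libraries. Over all protein-coding genes 58.8% had one. Smaller subfamilies such as Kcnab, Kcnd and Kcnt were complete as well. The count takes any annotated TSS. At Kcnh6 the replicate 1 peak lay 5485 bp from the 5' end of the record. With the authors' shorter list 6 of the 8 EAG genes had a promoter peak in both. Kcnh1, the founding EAG gene, had 3.86 and 2.26, Kcnh4 3.10 and 1.41 and Kcnh2, the ERG gene whose product repolarizes the heart, 2.55 and 1.45. Kcnh3, Kcnh5, Kcnh6 and Kcnh7 lay between 0.690 and 1.74 in replicate 1, and Kcnh8 was lowest at 0.395 and 0.283. Of the silent subunits, which conduct only when joined to Kv2 subunits, 5 of 10 were open in both libraries. Kcnf1 led at 2.02 and 1.29, Kcns2 had 1.19 and 0.858, and Kcng3, Kcns3 and Kcnv1 lay between 0.676 and 1.33 in replicate 1. Kcng1, Kcng4, Kcns1 and Kcnv2 had no promoter peak, and Kcng2 had one of 0.636 in replicate 1 only.

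Calcium-activated SK genes were among those with the strongest promoters. Kcnn2, a main SK gene of cortical neurons, had 5.32 in replicate 1 and 3.74 in replicate 2, next to Kcnab2 the highest strengths among the members in both libraries. That peak lies at an internal TSS, 290421 bp from the 5' end of the record, and the promoter peaks of Kcnn2 held 23 and 12 footprints. Kcnn3 had 3.27 and 2.03 and Kcnn1 1.50 and 1.17. Kcnn4, the intermediate-conductance channel of blood cells and epithelia, had none. Kcnma1, the BK channel gene, stood at 1.41 and 0.789, at different TSSs. Of the BK beta subunits only Kcnmb4, the neuronal one, had a peak in both libraries, at 1.19 and 0.781. Kcnmb1 and Kcnmb3 had none and Kcnmb2 had 0.435 in replicate 1 only. The sodium-activated channel genes Kcnt1 and Kcnt2 had 0.743 and 0.772, and 1.35 and 0.841. Kcnu1, known from sperm, had 0.275 and 0.309, the weakest promoter peak of all members in replicate 1, and it lay far inside the record. In replicate 2 the weakest was that of Kcnh8, at 0.283.

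Among the 15 inward rectifier genes 8 were open in both libraries. Kcnj2 (Kir2.1), a classical strong rectifier that holds the resting potential, had 4.67 in replicate 1 and 1.88 in replicate 2. Its log2 ratio of 1.32 was the largest between the libraries among all members. Kcnj10 (Kir4.1), the potassium buffering channel of astrocytes, had 2.12 and 1.19. Of the G-protein-gated channels, Kcnj6 had 2.38 and 1.37, Kcnj3 1.39 and 0.720, and Kcnj5 0.476 and 0.437. Kcnj9 had 1.39 in replicate 1 only, and so did Kcnj4, a Kir2 gene, at 1.45. Kcnj12 and Kcnj16 were weak in both, with 0.723 and 0.509 in replicate 1. In replicate 2 a peak lay 541 bp from a Kcnj4 TSS, just outside the window. Kcnj1, known from kidney, Kcnj13, known from the retinal pigment epithelium, Kcnj14 and Kcnj15 had none. Of the channels gated by ATP, Kcnj11 had 1.45 and 1.06 and Kcnj8, known from vascular muscle, 0.656 in replicate 1 only.

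Of the 14 K2P genes, whose products carry the background leak current, 7 were open in both libraries. Kcnk1 had 1.72 and 1.18, Kcnk10 1.70 and 0.995, Kcnk13 1.65 and 1.20 and Kcnk12 1.66 and 0.695. Kcnk5 had 1.33 and 0.969 and the mechanosensitive Kcnk2 1.04 and 0.703. Kcnk4 had 0.529 and 0.875, a log2 ratio of -0.73 and the lowest of all members, but its strongest peaks lay at different TSSs. Kcnk3 and Kcnk6 had 0.924 and 0.643 in replicate 1 only. Kcnk7, Kcnk9, Kcnk15, Kcnk16 and Kcnk18 had none. The last include channels of pancreas (Kcnk16) and sensory ganglia (Kcnk18). Kcnk9, the acid-sensitive TASK3 gene, had a peak 1271 bp from its TSS in replicate 1 and 540 bp in replicate 2, and Kcnk16 had one 519 bp from a TSS in both.

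**Figure D3:**
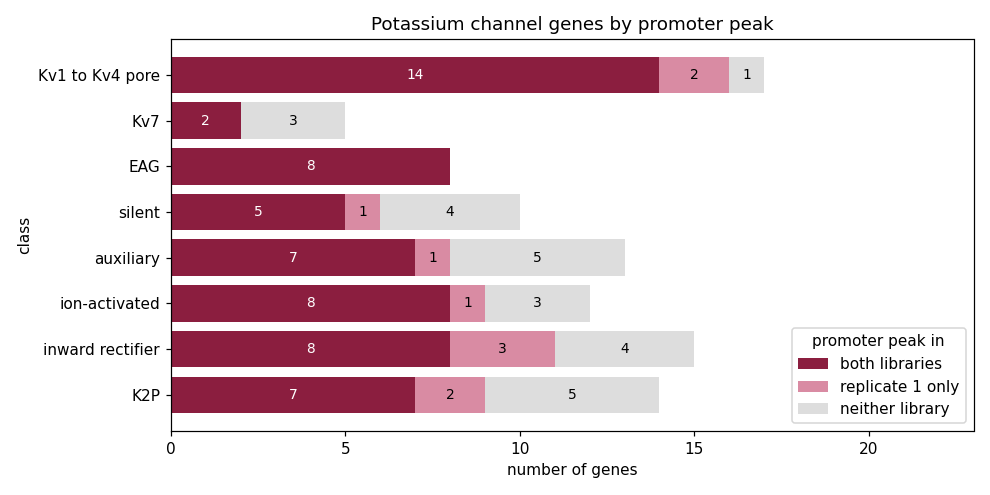
Number of potassium channel genes (x axis) in each class (y axis) with a promoter peak in both libraries, in replicate 1 only and in neither library. All 8 EAG genes and 14 of the 17 Kv1 to Kv4 genes had a peak in both, where 58.8% of all protein-coding genes had one.

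Few channel promoters without a peak held bases called by the authors' other measure, the FDR cut rate, but their share exceeded that of all unpeaked genes. Bases with a deposited FDR below 0.05 lay in the TSS windows of 1 of the 25 unpeaked genes (4%) in replicate 1. In replicate 2 there were 3 such genes (12%). Of all unpeaked protein-coding genes 2.14% and 0.839% had such bases. The difference was not tested and rests on few channel genes. Of the 10 genes with a peak in replicate 1 only, 5 had such bases in replicate 2, where the share over all such genes was 15.5%. Across the 59 genes with a peak in both libraries replicate 1 was stronger at all but 4, and the median log2 ratio was 0.52 against 0.63 for all genes. The 4 exceptions were Kcnk4, Kcnu1 at -0.17, Kcnt1 at -0.05 and Kcnh6 at -0.01. At 11 of the 59 genes, Kcnk4 and Kcnt1 among them, the strongest peaks of the libraries lay at different sites, so that their ratio compares different peaks.

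The sequences of 4 promoters are shown, of the inward rectifiers Kcnj2 and Kcnj10, of the EAG gene Kcnh1 and of the SK gene Kcnn3, which span the strength range from 2.12 to 4.67 in replicate 1. They are the bases of the replicate 1 peak that lie before the first exon, in mm10 and on the gene's strand, which is plus for all. Capitals mark bases that lay in a footprint in both libraries.
Kcnj2, chr11:111065981-111066163, plus strand: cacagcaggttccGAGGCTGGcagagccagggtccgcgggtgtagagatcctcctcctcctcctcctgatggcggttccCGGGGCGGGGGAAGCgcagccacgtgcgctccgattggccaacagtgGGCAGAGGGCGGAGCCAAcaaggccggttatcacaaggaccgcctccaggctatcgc
Kcnh1, chr1:192190601-192190720, plus strand: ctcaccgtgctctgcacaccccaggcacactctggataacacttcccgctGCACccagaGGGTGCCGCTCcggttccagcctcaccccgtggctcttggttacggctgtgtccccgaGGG
Kcnn3, chr3:89519941-89520163, plus strand: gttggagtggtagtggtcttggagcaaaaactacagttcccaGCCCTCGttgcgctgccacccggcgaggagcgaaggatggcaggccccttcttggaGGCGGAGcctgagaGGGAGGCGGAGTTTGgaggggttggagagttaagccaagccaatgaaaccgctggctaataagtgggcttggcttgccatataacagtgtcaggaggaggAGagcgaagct
Kcnj10, chr1:172340981-172341200, plus strand: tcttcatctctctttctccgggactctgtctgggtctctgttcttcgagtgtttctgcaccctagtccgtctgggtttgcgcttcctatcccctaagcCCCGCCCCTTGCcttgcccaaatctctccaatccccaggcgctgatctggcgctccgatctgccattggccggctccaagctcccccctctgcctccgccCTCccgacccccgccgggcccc

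The letters GGGCGG, on either strand, were found in the Kcnj2 and Kcnj10 stretches and lay within capitals in both. They were not found in those of Kcnh1 and Kcnn3. GC content ran from 57.8% at Kcnn3 to 67.2% at Kcnj2. At Kcnh1 18 of 120 bases were in a footprint in both libraries, and at Kcnj2 41 of 183.

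Linked peaks were frequent around channel genes. A linked peak was found in both libraries at 76 of the 94 genes (80.9%), where 54.4% of all protein-coding genes had one. Channel genes had medians of 3.5 (replicate 1) and 2 (replicate 2) linked peaks, against 1 in each library for all genes. Channel records are longer, with a median of 30.8 kb against 17.4 kb. Per 100 kb of record plus its flanks of 10 kb on each side, the medians were 4.17 and 3.27 for channel genes. For all genes they were 2.63 and 1.44. The flanks make up more of the span in shorter records, so these values correct for record length only in part. The Scn and Cacn genes, with a median length of 104.7 kb, had 4 and 3 linked peaks. No gene-level test was made, since genes are not replicates. Of the 25 channel genes without a promoter peak, 18 (72%) had linked peaks in both libraries, against 33.9% of all genes without one. No linked peak in either library was seen at 8 of the 94 (8.51%), against 32.3% of all genes. These shares do not allow for record length.

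Most of the highest counts were in long records. Linked peaks numbered 23 and 17 at Kcnma1 in replicates 1 and 2, 23 and 10 at Kcnj6, 18 and 10 at Kcnip1 and 16 and 8 at Kcnip4. Kcnk12, a K2P gene of 52.2 kb, had 14 and 16. Kcnh1 had 13 in replicate 1 and only 1 in replicate 2. Counts of 10 or more were reached by 15 genes (16%) in replicate 1 and 4 (4.26%) in replicate 2, against 4.15% and 1.63% of all genes. Kcnip1, with 18 and 10 linked peaks, had no promoter peak in replicate 2, so that promoter and linked peaks did not go together in every gene.

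**Figure D4:**
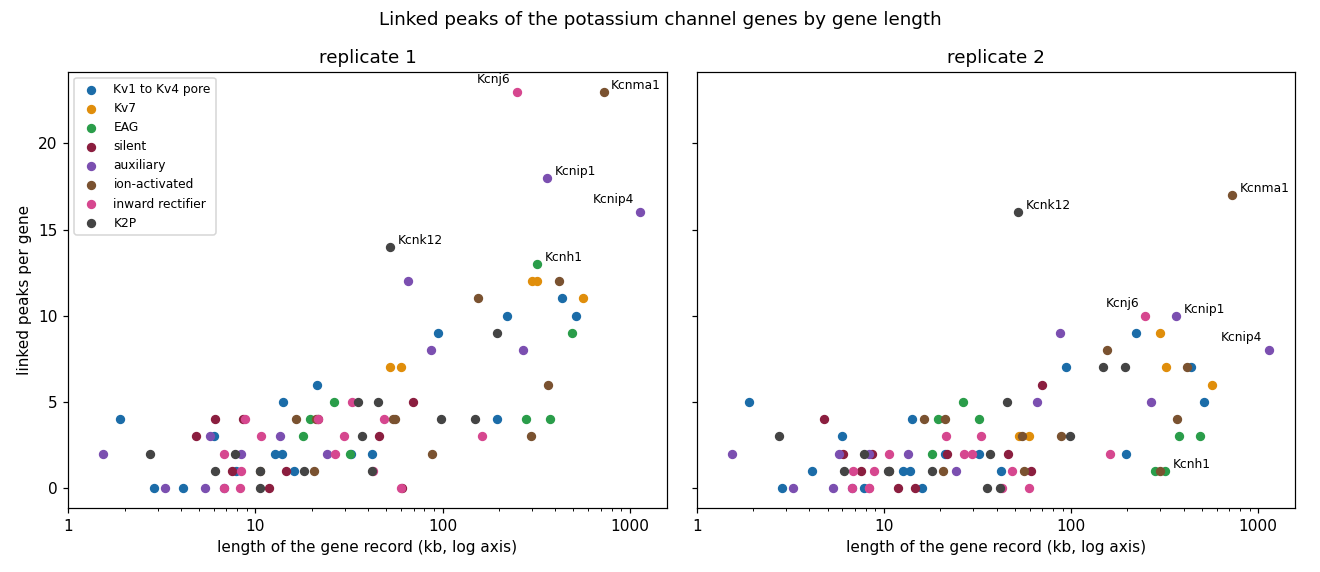
Linked peaks per potassium channel gene (y axis) by length of the gene record (x axis, kb on a log axis) in replicate 1, left, and replicate 2, right, with 1 point per gene coloured by class. Kcnma1 and Kcnj6 have the most in replicate 1, at 23 each, and in replicate 2 Kcnma1 has 17 and Kcnk12, in a record of 52.2 kb, has 16.

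The 446 and 297 links came from 445 distinct peaks in replicate 1 and 296 in replicate 2. Their midpoints lay in introns for 71.5% and 68.6%, between genes for 15.5% and 17.6% and in coding exons for 7.42% and 9.12%. Overlap with a peak of the partner library was found for 57.3% in replicate 1 and 85.1% in replicate 2, against 52.7% and 82.1% of all peaks away from TSSs. Their median strength was 0.670 and 0.673, against 0.569 and 0.618. A footprint lay in 82.0% and 71.6%, against 76.2% and 72.8%. At 25 of the 59 genes with a promoter peak in both libraries, the strongest linked peak exceeded the strongest promoter peak in both (42.4%), against 15.6% of the 12910 genes.

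The strongest linked peak lay upstream of Kcnn1, an SK channel gene, with strengths of 8.43 in replicate 1 and 5.24 in replicate 2. It exceeds the Kcnn1 promoter peaks of 1.50 and 1.17. It is 2243 bp from the nearest annotated TSS, that of Kcnn1, in sequence annotated as intergenic. A second site of 4.70 and 3.17 lies in the opposite flank of Kcnn1, but 1421 bp from a TSS of Arrdc2, so that its assignment to Kcnn1 rests on distance alone. An intron of Kcnip4 held a site of 4.25 and 3.46, 195239 bp from the nearest Kcnip4 TSS. Kcna6, a Kv1 gene, had an intergenic site of 4.01 and 2.56 in its flank. An intron of Kcnip2 held a site of 3.90 and 3.97, well above the Kcnip2 promoter at 0.844 and 0.669, and an intron of Kcnma1 one of 3.72 and 2.11. The last is 3390 bp from a TSS of the noncoding gene 4930519K11Rik. These 6 sites had a peak in both libraries.

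Of these sites 5 are shown on the plus strand of mm10, with bases in a footprint of both libraries in capitals. The first is trimmed to its central 300 bases, and none overlaps an annotated exon. They show how much of a strong distal site was protected in both libraries.
Kcnn1, chr8:70865571-70865870, plus strand: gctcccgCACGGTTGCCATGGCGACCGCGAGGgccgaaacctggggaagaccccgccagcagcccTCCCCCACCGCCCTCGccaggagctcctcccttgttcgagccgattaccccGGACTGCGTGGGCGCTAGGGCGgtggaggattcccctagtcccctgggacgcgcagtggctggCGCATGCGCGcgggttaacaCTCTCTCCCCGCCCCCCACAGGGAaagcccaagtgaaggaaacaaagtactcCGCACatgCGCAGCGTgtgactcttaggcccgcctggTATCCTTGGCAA
Kcnip4, chr5:49090221-49090420, plus strand: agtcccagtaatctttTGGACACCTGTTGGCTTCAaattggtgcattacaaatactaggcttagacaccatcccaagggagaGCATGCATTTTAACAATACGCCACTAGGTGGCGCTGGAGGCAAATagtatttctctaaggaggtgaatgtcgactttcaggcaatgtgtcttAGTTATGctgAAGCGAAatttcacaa
Kcna6, chr6:126702281-126702500, plus strand: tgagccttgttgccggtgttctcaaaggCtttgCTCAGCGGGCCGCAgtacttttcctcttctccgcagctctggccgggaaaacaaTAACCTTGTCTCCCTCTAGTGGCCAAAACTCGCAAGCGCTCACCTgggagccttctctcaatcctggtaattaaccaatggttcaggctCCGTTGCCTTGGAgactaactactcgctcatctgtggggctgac
Kcnip2, chr19:45813361-45813560, plus strand: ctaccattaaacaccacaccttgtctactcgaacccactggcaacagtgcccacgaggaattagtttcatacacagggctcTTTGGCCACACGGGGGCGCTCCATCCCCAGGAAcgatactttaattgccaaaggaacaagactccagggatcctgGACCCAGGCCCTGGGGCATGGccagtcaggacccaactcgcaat
Kcnma1, chr14:24008381-24008560, plus strand: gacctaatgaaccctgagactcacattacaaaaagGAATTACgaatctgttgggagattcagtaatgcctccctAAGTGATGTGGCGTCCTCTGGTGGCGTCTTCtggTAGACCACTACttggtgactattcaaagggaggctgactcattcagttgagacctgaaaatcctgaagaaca

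The Kcnn1 site differed from the others in composition. It had 67.0% GC and 26 CpG dinucleotides in 300 bases, where the other 4 had 3 to 9 in 180 to 220. It held the letters GGGCGG, the NRF1 letters GCGCATGCG and the EGR letters GCGTGGGCG, and 122 of its bases were in capitals. The Kcnip4 site held the core letters of CTCF, an insulator protein, which are CCNCNAG, a pair of any bases and GGC. They lay in the long footprint in its middle. A looser form of these letters, CC, 3 bases, AG, 2 bases and GG, lay within capitals at Kcnip4 and Kcna6. It was not found at the Kcnn1, Kcnip2 and Kcnma1 sites shown.

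CTCF letters were common at the strong linked sites of channel genes and at strong distal peaks in general. The core letters were in 10.1% of linked peaks in replicate 1 and 14.2% in replicate 2, in windows of 300 bases, against 8.27% and 11.2% of all distal peaks. Among peaks with a strength above 2 the shares were 34.3% of 35 peaks and 34.6% of 26, against 27.3% and 28.1%. The looser letters, chosen after the strongest sites were seen, were in 82.9% and 84.6% of these, against 64.3% and 66.7%. Of 179 distinct footprints of linked peaks seen in both libraries, 28 (15.6%) held the core letters within 5 bp, against 12.5% of 25908 at all distal peaks. They lay at 23 channel genes. The REST letters were in 1.57% of linked peaks in replicate 1 and 2.03% in replicate 2, against 0.470% and 0.493%. No test of these shares was made.

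Genes whose products bind potassium channels or act beside them were set beside the channel genes. Promoter peaks were found in both libraries at 15 of 22 such genes, 19 in replicate 1 and 16 in replicate 2. Dlg2, a scaffold that clusters Kv1 channels, had 7.33 in replicate 1 and 3.33 in replicate 2 and 39 and 32 linked peaks. Dpp6, an auxiliary protein of Kv4 channels, had a promoter strength of 1.73 and 0.883 and 32 and 23 linked peaks. Ank3, which anchors Kv7 channels at the axon initial segment, had 30 and 22 linked peaks. Cntnap2, which clusters Kv1 channels along myelinated axons, had 22 and 15. These linked counts do not allow for record length. Hcn2, a pacemaker channel gene, had a promoter strength of 1.04 in replicate 1 only. Abcc9 and Lrrc55 had no promoter peak in either library.

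With the shorter peak list the channel share fell below that of all genes. What divides the lists is not stated, and strength alone does not. In replicate 1 the shorter list lacked the Kcnip2 promoter peak of 0.844 and kept that of Kcnh8 at 0.395. With the shorter of the authors' lists a promoter peak was present in both libraries at 39 channel genes (41.5%), against 52.4% of all genes. The share had been 62.8% against 58.8% with the longer list, so its direction relative to all genes turns with the list. With the 5' end of each record as the only TSS it was 50% against 53.2%. Of the 59 genes, 20 (33.9%) lost the promoter peak in at least 1 library with the shorter list, against 11% of all 12910 genes. In both libraries it was lost at 6 (10.2%), against 2.44%, and these were Kcnip2, Kcnk4, Kcnh6, Kcnj5, Kcnc2 and Kcnu1.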

How the data were processed

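DNase-seq peaks, footprints and FDR cut rates were deposited by the authors for each library, called from that library alone on mm10. For the aligner, caller and filters the sources used here give nothing. The peak value is a signal that the authors normalized for read depth, per the deposited notes. The deposited FDR values are on a p-value scale, and every stretch listed lies below 0.05. Footprint files hold 1 constant, so positions alone were used. Total reads are unknown.

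Members came from GENCODE M21 by symbol. The members, the marker and partner lists, the motifs and the strength level of 2 were chosen with earlier results of these data known. Overlaps of at least 1 bp and medians were computed with numpy 2.4.6 and pandas 2.3.3, checked with bedtools 2.31.1, and promoter sequences were those of RefSeq (GRCm38.p6). Peak counts were tested on simulated data, where all 500 genes came out equal. With 1 group no test between groups was possible, and the spread over both libraries, which share a donor label, may be partly technical. Whether CAST/Ei reads align as well as C57BL/6 reads was not tested. A peak of a TSS shared by neighbouring genes was counted for each.

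Named genes were, per class, the 2 strongest promoters, the 2 with the most linked peaks and up to 3 without a promoter peak. To these were added genes peaked in 1 library, the 3 highest and 3 lowest ratios, the 3 richest in footprints, the 3 strongest linked peaks, genes lost with the shorter list and the 3 closest peaks outside the window. Other members are named to complete their class, a choice made after seeing their values. A few genes are not reported here by name.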

Additional observations from a re-analysis of the deposited data

How the results depend on the processing

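Of 56 values under other settings, 51 stayed near the reported value and 5 moved further. Near meant within 1.5 times a count, 1 SD of a median or the 95% interval of the ratio between the libraries. That SD came from the library medians themselves, so medians of each library alone were all but bound to be near. Their labels say nothing about stability. Only that ratio could be labelled reversed, and it was not. The channel share relative to all genes was not part of these labels. Its direction turned with the shorter list (41.5% against 52.4%) and with the 5' end as the only TSS (50% against 53.2%). The shorter peak list gave 39 genes with a promoter peak in both libraries (59 as reported), 18 with one in 1 library only (10 as reported) and a median of 1.25 linked peaks (2.5 as reported). Flanks of 50 kb gave a median of 5.5 linked peaks, and summed promoter peaks gave a median strength of 1.82 instead of 1.14. The cause was not tested. Each library alone gave 59 to 69 genes with a promoter peak, 79 to 83 with a linked peak, 53 to 65 with a promoter footprint, a median strength of 0.883 to 1.33 and a median of 2 to 3.5 linked peaks. Depth limits what can be seen, since the weakest promoter peak held 33 steps. No paired analysis was possible because there is only 1 group. The settings added after seeing the data were the looser CTCF letters, the strength level of 2 and the count without promoters shared with another gene.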
